A study of Mus musculus with 6 samples.

Results

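Type I interferon-stimulated genes are the genes that cells switch on when interferon-alpha or interferon-beta reaches them. Here 39 of them, given as a list of gene symbols, were followed in natural killer (NK) cells sorted from mouse spleen. Each symbol matched exactly 1 of the 50686 genes in the deposited count table, and all 39 passed the filter on low counts, with 15458 genes tested in all. Oas1g passed only through the Eumyc libraries, so its difference was in part fixed by the filter. The study compared 3 libraries from healthy C57BL/6J mice (WT, labelled wild type) with 3 from C57BL/6J mice that had received Eumyc lymphoma into a vein (Eumyc, with no genotype label). Spleens of the lymphoma-bearing mice were taken at day 14. Eumyc lymphoma is a mouse B cell lymphoma driven by Myc under an immunoglobulin heavy chain enhancer, so in the transferred model the NK cells come from the recipient. All 6 samples were depleted of B cells, enriched for CD49b with beads and sorted as NK1.1+ TCRb- cells. For Eumyc the sort also took the fraction that the beads had not held, so this step and the lymphoma cannot be told apart in any group difference. The labels used here state neither mouse age nor sex, nor whether the 3 samples of a group were separate animals. The p-values therefore measure the spread between these samples, which may be technical.

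Interferon-alpha and interferon-beta bind a shared receptor, IFNAR, whose kinases JAK1 and TYK2 phosphorylate STAT proteins, STAT2 among them. STAT2 and IRF9 are subunits of the factor ISGF3, which binds the interferon-stimulated response element (ISRE) upstream of its target genes. The products sense viral RNA, block viral translation, degrade RNA or damp the signal again. In NK cells type I interferon is known to raise cytotoxicity and to support survival during infection. Some of these genes also answer to interferon-gamma, so the list does not name its inducer.

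The libraries held 27535702, 36534191 and 16407611 gene counts in WT 1, 2 and 3. In Eumyc 1, 2 and 3 they held 44456157, 65353739 and 66615602. WT 3 and Eumyc 1 were the smallest of their groups, and the part of depth in the library spread was not tested. None of the 12 NK markers was at 0 in any group, and their summed level was 16941 to 17435 CPM (counts scaled to a common library size) in WT and 15323 to 16878 CPM in Eumyc, although 6 of the 12 were lower and 1 higher in Eumyc, with Klre1 (-0.82) and Klrd1 (-0.70) the lowest on the log2 scale. All levels are CPM scaled by the TMM method. For this and the other marker counts below, 25.7% of all genes tested were called higher in Eumyc and 23.1% lower. Libraries stood apart within both groups. WT 3 had a summed level of 10 cell division genes of 331 CPM, against 84.7 and 67.9 CPM in WT 1 and WT 2, and in Eumyc it was 1577, 1621 and 2272 CPM. The 20 monocyte and macrophage markers, none of them at 0 in either group, summed to 1239 to 1292 CPM in WT and 2683, 1834 and 1926 CPM in Eumyc 1, 2 and 3, with 14 of 20 higher and 2 lower in Eumyc. Of these sums Ccr2 alone had a mean of 832 CPM in WT and 978 CPM in Eumyc. Neutrophil markers summed to 4.08 to 6.11 CPM in WT and 54.3 to 77.6 CPM in Eumyc, with Ly6g and Elane at 0 in WT. B cell markers summed to 15.8 to 19.6 and 49.9 to 56.8 CPM, and T cell markers to 371.5 to 404.5 and 485.6 to 530.7 CPM. Erythroid markers summed to 154.1 to 186.3 and 415.0 to 492.6 CPM, with 7 of 8 higher. Most of this was Car2, with a mean of 151 CPM in WT against 394 CPM in Eumyc. Markers of conventional dendritic cells summed to 726 to 822 and 1188 to 1298 CPM, with 5 of 8 higher. Nearly all of that was Itgax, with a mean of 769 CPM in WT against 1215 CPM in Eumyc. Markers of plasmacytoid dendritic cells, a main source of type I interferon, summed to 90.2 to 93.7 and 100.8 to 133.7 CPM. Of the 6 tested 3 were higher (Siglech, Pacsin1 and Lair1) and 1, Tcf4, lower, and most of the summed difference was in Lair1, with a mean of 39.3 CPM in WT against 71.9 CPM in Eumyc. Siglech was at 0 counts in WT and 67 in Eumyc, so it passed the filter only through the Eumyc libraries, and its call was in part fixed by the filter. The same held for low genes of other marker lists, such as Flt3, Clec10a and Klf1 with 2, 2 and 6 counts in WT. In bulk RNA fewer cells of a type and less RNA per cell cannot be told apart.

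The stretches of 250 bases upstream of 5 genes are shown to set ISRE letters beside the values of 4 genes that hold them and of Samd9l, in whose window none was found. They come from RefSeq (GRCm38.p6), run 5′ to 3′ in the direction of the gene, and carry in capitals each match to the ISRE core, searched as GAAA, any 2 bases and GAAA, or on the other strand as TTTC, any 2 bases and TTTC. Isg15 is on the minus strand (chr4:156200819-156201068), as are Oas1a (chr5:120907526-120907775), Oas1g (chr5:120887614-120887863) and Samd9l (chr6:3399572-3399821), and Ifit1 is on the plus strand (chr19:34640639-34640888).
Isg15: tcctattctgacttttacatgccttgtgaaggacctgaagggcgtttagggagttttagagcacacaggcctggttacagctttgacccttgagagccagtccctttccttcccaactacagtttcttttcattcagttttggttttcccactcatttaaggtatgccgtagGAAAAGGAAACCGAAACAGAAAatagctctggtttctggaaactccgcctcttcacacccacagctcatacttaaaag
Oas1a: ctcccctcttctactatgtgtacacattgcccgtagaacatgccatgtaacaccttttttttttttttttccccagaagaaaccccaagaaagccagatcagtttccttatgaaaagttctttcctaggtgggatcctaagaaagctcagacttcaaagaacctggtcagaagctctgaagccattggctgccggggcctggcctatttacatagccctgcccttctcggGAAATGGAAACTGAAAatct
Oas1g: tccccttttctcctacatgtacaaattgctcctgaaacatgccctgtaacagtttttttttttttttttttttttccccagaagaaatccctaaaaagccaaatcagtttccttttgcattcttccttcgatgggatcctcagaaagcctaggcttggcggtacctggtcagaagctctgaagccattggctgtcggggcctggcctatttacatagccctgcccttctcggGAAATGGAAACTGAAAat
Ifit1: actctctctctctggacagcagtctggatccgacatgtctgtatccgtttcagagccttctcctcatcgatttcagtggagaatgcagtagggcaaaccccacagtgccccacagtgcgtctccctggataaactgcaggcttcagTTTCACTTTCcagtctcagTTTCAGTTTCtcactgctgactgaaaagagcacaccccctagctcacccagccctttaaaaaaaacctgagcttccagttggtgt
Samd9l: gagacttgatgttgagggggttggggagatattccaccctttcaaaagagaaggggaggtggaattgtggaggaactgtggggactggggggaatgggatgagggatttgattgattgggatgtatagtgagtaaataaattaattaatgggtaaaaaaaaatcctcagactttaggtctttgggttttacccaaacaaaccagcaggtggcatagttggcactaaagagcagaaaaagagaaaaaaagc
The Isg15 window held 3 overlapping matches, beginning 78, 72 and 66 bases before the start. Oas1a and Oas1g each held 2 overlapping matches with the same letters, in Oas1a 20 and 14 and in Oas1g 18 and 12 bases before the start. Ifit1 held 2 on the other strand, 104 and 85 bases before the start, and the Samd9l window held none. RefSeq windows from 250 bases before to 50 bases after a start were matched for 28 of the 39 genes, and 14 of the 28 held the core, against 3.99% of all 27025 genes with a window. A match is a run of letters and not a shown binding site. Of the 14 genes with a match 7 were called higher in Eumyc, and of the 14 without one 8 were called higher and 1 lower, where 25.7% of all genes tested were called higher and 23.1% lower. The interferon-gamma element TTCNNNGAA, which is its own reverse complement and was counted separately from the ISRE core, was in the windows of 6 of the 28 genes and of 9.55% of all genes.

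Several members lie side by side in the genome (GRCm38, coordinates as in the deposited table). Oas2, Oas3, Oas1b, Oas1g and Oas1a follow each other on chr5:120730333-120907521, and Oasl2 and Oasl1 lie at chr5:114896936-114937915. Ifit2, Ifit3, Ifit3b and Ifit1 fill chr19:34550694-34650009, and Rsad2 and Cmpk2 adjoin at chr12:26442753-26479835. Isg15 is at chr4:156199424-156200818, Ifi27l2a at chr12:103442167-103443680, Isg20 at chr7:78913424-78920396 and Samd9l at chr6:3372257-3399572. Of the 39 genes Oas1b and Mx2 are annotated as polymorphic pseudogenes and the others as protein coding.

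The group comparison asked how these genes differed between NK cells of lymphoma-bearing and healthy mice. Of the 39 genes 22 were higher and 2 lower in Eumyc by edgeR's quasi-likelihood test at a Benjamini-Hochberg adjusted p under 0.05 over all tested genes, and 15 did not pass. Over all 15458 genes 48.8% were called, 25.7% higher and 23.1% lower. Against a fold change of 1.5 in the same model 6 members passed as higher, with a background of 8.15%. The members called higher numbered 23 with DESeq2 (background 26.2%), 17 with limma voom (26.4%), 23 with voom and quality weights (27.4%) and 22 with DESeq2 size factors (25.9%). They numbered 20 with a replicate block (27%), 27 without a filter (17%), 20 of 35 with a filter of 3 CPM (29.6%), 19 with total counts (23.5%) and 20 with upper quartile scaling (23.5%). The median log2 fold change was 0.62 over the 39 genes and -0.0050 over all genes tested. Without Oas1g the counts were 21 of 38 and the median 0.60. For 15 genes all 3 Eumyc libraries lay above all 3 WT libraries, and for 2 below, where the same held for 31.3% and 28.9% of all genes. As shares of the 39 genes these are 56.4% called higher and 38.5% with every Eumyc library above WT, so the second lies nearer to its background.

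**Figure D1:**
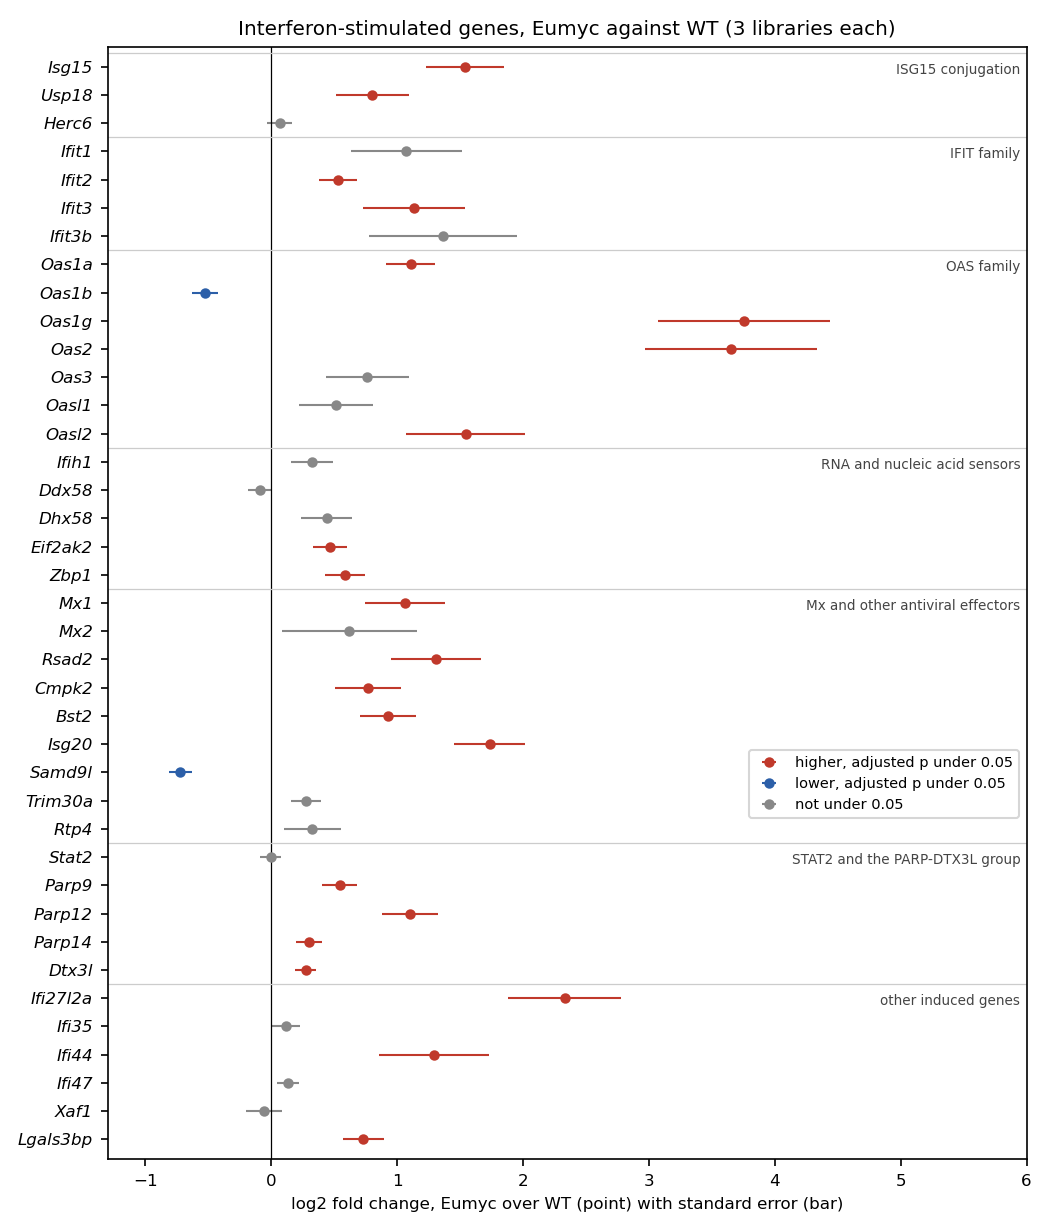
Log2 fold change of Eumyc over WT for each of the 39 genes in role groups, with points for the edgeR estimate and bars for its standard error. The 22 genes called higher are red, the 2 called lower (Oas1b and Samd9l) blue and the other 15 grey, and the largest values belong to Oas1g (3.75) and Oas2 (3.65).

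ISG15 is a ubiquitin-like protein that is attached to other proteins during the interferon response. Isg15 was at 5.52, 6.63 and 10.7 CPM in WT 1, 2 and 3 and at 31.4, 16.7 and 17.3 CPM in Eumyc 1, 2 and 3. All Eumyc libraries were above all WT libraries, and Eumyc 1 and WT 3 were the highest of their groups (log2 fold change 1.54 ± 0.31 SE, edgeR adjusted p = 0.00411). Usp18, which removes ISG15 and blocks the interferon receptor, was at 10.1, 12.3 and 17.0 CPM in WT and 32.9, 19.8 and 15.4 CPM in Eumyc. Its groups overlapped, since Eumyc 3 lay below WT 3, and it was called higher (0.80 ± 0.29, adjusted p = 0.0476). This call ended without WT 1, WT 2, Eumyc 1 or Eumyc 2 (adjusted p = 0.153, 0.133, 0.132 and 0.0542). Herc6, the main ISG15 ligase of the mouse, was at 30.8, 30.02 and 32.9 CPM in WT and 37.3, 31.2 and 29.6 CPM in Eumyc. It did not pass (0.07 ± 0.10, adjusted p = 0.615). Of the enzymes upstream of it, Ube2l6 rose (1.02 ± 0.28, adjusted p = 0.0171) and Uba7 fell (-0.32 ± 0.07, adjusted p = 0.00511).

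The IFIT proteins bind foreign RNA ends and hold back its translation, and 2 of the 4 genes were called higher (25.7% over all genes). Ifit2, the most abundant, was at 42.9, 41.2 and 57.3 CPM in WT and 79.0, 58.5 and 66.0 CPM in Eumyc. The groups were narrowly apart, with WT 3 just under Eumyc 2 (0.53 ± 0.15, adjusted p = 0.0177). Ifit1 was at 5.81, 6.36 and 12.3 CPM in WT and 28.2, 14.0 and 8.49 CPM in Eumyc. Here the spread within Eumyc was wider than the distance between the groups, with Eumyc 3 under WT 3, and the gene did not pass (1.07 ± 0.44, adjusted p = 0.0755). Ifit1 passed without WT 3 (1.47, adjusted p = 0.0283) or without Eumyc 3 (1.40, adjusted p = 0.0230). Ifit3 was called higher (1.13 ± 0.40, adjusted p = 0.0455), and Ifit3b did not pass (1.36 ± 0.59, adjusted p = 0.0860). Both were highest in WT 3 and Eumyc 1 of their groups, but Eumyc 2 was above Eumyc 3 for Ifit3 and below it for Ifit3b. They are close copies, with 51.2% of the 50-base words of Ifit3 transcripts also in Ifit3b, so their single values are uncertain. The calls of Ifit2 and Ifit3 ended without WT 1 (adjusted p = 0.0710 and 0.143), WT 2 (0.0702 and 0.155) or Eumyc 1 (0.0501 and 0.134), and Ifit3b passed without WT 3 (1.96, 0.0275).

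The OAS enzymes make oligoadenylates in response to double-stranded RNA, and this family spanned the widest range. Oas2 was at 0.433, 0.270 and 1.14 CPM in WT against 12.6, 2.86 and 5.13 CPM in Eumyc. All Eumyc libraries were higher, and Eumyc 1 was far above the other two (3.65 ± 0.68, adjusted p = 0.00306). Without Eumyc 1 the log2 fold change was 2.88 and without WT 3 it was 4.31, both called. Oas1g had 1, 7 and 4 counts in WT, or 0.0361, 0.189 and 0.240 CPM, and stood at 3.62, 1.098 and 1.44 CPM in Eumyc. It was higher in every Eumyc library (3.75 ± 0.68, adjusted p = 0.00269, and 3.09 without Eumyc 1). Oas1a, a close copy that shares 57.6% of its 50-base words with Oas1g, was at 18.5, 16.7 and 26.4 CPM in WT and 54.4, 37.4 and 40.1 CPM in Eumyc. The groups did not overlap (1.11 ± 0.20, adjusted p = 0.00231), though reads of the pair cannot be assigned with certainty.

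Oas1b went the other way. This relative, which carries a premature stop in C57BL/6 mice and is a polymorphic pseudogene in the deposited annotation, was at 42.3, 51.0 and 48.3 CPM in WT and 36.7, 32.0 and 29.9 CPM in Eumyc. All Eumyc libraries were below all WT libraries (-0.52 ± 0.10, adjusted p = 0.00377), and only 2.78% of its 50-base words occur in other genes. Oas3 was at 19.8, 28.6 and 45.2 CPM in WT and 76.4, 41.6 and 39.6 CPM in Eumyc. WT 3 lay above Eumyc 2 and Eumyc 3, and the gene did not pass (0.76 ± 0.33, adjusted p = 0.0849), but passed without WT 3 (1.12, adjusted p = 0.0164). Oasl2, an OAS-like gene, was at 3.75, 3.27 and 6.65 CPM in WT and 22.9, 6.51 and 9.57 CPM in Eumyc. It was called higher (1.54 ± 0.47, adjusted p = 0.0262) although Eumyc 2 was under WT 3, and leaving out WT 1, WT 2 or Eumyc 1 ended the call (adjusted p = 0.0958, 0.103 and 0.0592). Without Eumyc 1 its log2 fold change was 0.87. Oasl1 had a mean of 9.49 ± 3.07 CPM in WT and 13.4 ± 5.14 CPM in Eumyc (SD, n = 3 each) and did not pass (adjusted p = 0.184), but passed without WT 3 (adjusted p = 0.0479).

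Among the nucleic acid sensors 2 of 5 were called higher (25.7% over all genes). The median log2 fold change of the 5 was 0.44, against 1.103 for the IFIT and 1.108 for the OAS genes. Ddx58, which encodes the RNA sensor RIG-I, was the most abundant at 197.9, 227 and 218 CPM in WT and 229.5, 197.2 and 178 CPM in Eumyc. The WT libraries lay within the range of the Eumyc libraries, and the gene did not pass (-0.09 ± 0.10, adjusted p = 0.473). Ifih1 and Dhx58, which encode the sensors MDA5 and LGP2, did not pass either (0.32 ± 0.17 and 0.44 ± 0.20, adjusted p = 0.144 and 0.103), but Dhx58 did without WT 3 (0.64, adjusted p = 0.0232). Eif2ak2, the RNA-activated kinase PKR that halts translation, rose from 47.0 ± 6.76 to 64.9 ± 10.9 CPM (SD, n = 3 each, adjusted p = 0.0231). Zbp1, a sensor of Z-form nucleic acids, rose from 93.8 ± 13.1 to 141 ± 32.3 CPM (adjusted p = 0.0152). Both had Eumyc above WT in every library. Their calls ended without WT 1 (adjusted p = 0.0638 for Eif2ak2 and 0.0614 for Zbp1) or WT 2 (0.0790 and 0.0629), and that of Eif2ak2 also without Eumyc 1 (0.0560).

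Of the 9 antiviral effector genes 5 were higher and 1 lower (25.7% and 23.1% over all genes). Samd9l, an interferon-induced gene that restrains protein synthesis and growth, was by CPM the most abundant of all members in WT. It was at 588, 653 and 638 CPM in WT and 418, 391.9 and 329 CPM in Eumyc. The 2 groups were well apart and the gene fell (-0.72 ± 0.09, adjusted p = 0.000590), which was the smallest adjusted p of the 39 genes. Isg20, an RNA exonuclease, was at 1.73, 1.54 and 2.88 CPM in WT and 8.36, 5.12 and 6.44 CPM in Eumyc. Every Eumyc library was above every WT library (1.74 ± 0.28, adjusted p = 0.00159). Bst2, the tetherin that holds budding viruses at the cell surface, was at 18.5, 20.8 and 32.6 CPM in WT and 56.6, 39.1 and 40.02 CPM in Eumyc. It too was higher in every Eumyc library (0.93 ± 0.22, adjusted p = 0.00920).

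Of the remaining effectors 3 were called higher. Mx1, a dynamin-like GTPase whose C57BL/6J allele is known to be defective, was at 26.1, 28.7 and 45.3 CPM in WT and 104.3, 60.1 and 43.4 CPM in Eumyc. WT 3 lay above Eumyc 3, and the gene was called higher (1.06 ± 0.32, adjusted p = 0.0247). The neighbours Rsad2, which encodes viperin, and Cmpk2, a nucleotide kinase, were also called higher (1.31 ± 0.36 and 0.77 ± 0.27, adjusted p = 0.0163 and 0.0412). Without WT 1 the adjusted p-values of Mx1, Rsad2 and Cmpk2 were 0.0944, 0.0685 and 0.130, and without WT 2 they were 0.0922, 0.0583 and 0.138. Without Eumyc 1 those of Mx1 and Cmpk2 were 0.0544 and 0.106. Trim30a, Rtp4 and Mx2 did not pass (adjusted p = 0.0867, 0.266 and 0.366). Trim30a passed without WT 3 or Eumyc 3 (adjusted p = 0.0183 and 0.0434), and Rtp4 passed without WT 3 (0.0383).

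STAT2 is the interferon-specific subunit of ISGF3, and its gene did not pass. Stat2 was at 103.5, 105.6 and 107.5 CPM in WT and 118.9, 101.5 and 95.3 CPM in Eumyc, the narrowest WT spread of all 39 genes. The Eumyc libraries lay on both sides of the WT libraries (-0.0044 ± 0.08, adjusted p = 0.969). PARP9 and DTX3L form a ubiquitin ligase complex, and their genes lie head to head and share 458 exon bases on opposite strands, so reads there cannot be assigned. Parp9 was at 61.5, 63.9 and 84.5 CPM in WT and 118.7, 94.9 and 91.7 CPM in Eumyc. The groups were apart (0.54 ± 0.14, adjusted p = 0.0122), as they were for Dtx3l (0.27 ± 0.08, adjusted p = 0.0243). Parp12, an ADP-ribosyltransferase, was at 7.14, 8.11 and 9.23 CPM in WT and 23.8, 13.1 and 15.5 CPM in Eumyc and was higher in every Eumyc library (1.099 ± 0.22, adjusted p = 0.00425).

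Parp14, the most abundant gene of this set and a relative of Parp12, was at 198.9, 209.8 and 251.6 CPM in WT and 296.5, 272.7 and 242.4 CPM in Eumyc. WT 3 lay above Eumyc 3, and it was called higher (0.30 ± 0.10, adjusted p = 0.0410). Leaving out WT 1, WT 2, Eumyc 1 or Eumyc 2 ended the call (adjusted p = 0.126, 0.117, 0.103 and 0.0714), as did total counts and upper quartile scaling (0.0609 and 0.0624). Without WT 1 or WT 2 the calls of Parp9 (adjusted p = 0.0518 and 0.0521) and Dtx3l (0.0775 and 0.0653) ended too.

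Of the 6 other induced genes 3 rose (25.7% over all genes). Ifi27l2a, a small membrane protein gene, was at 2.56, 2.06 and 4.43 CPM in WT and 23.4, 7.29 and 13.4 CPM in Eumyc. All Eumyc libraries were higher, Eumyc 1 most (2.33 ± 0.45, adjusted p = 0.00337). Lgals3bp, a secreted galectin-binding glycoprotein, was at 189.4, 186.5 and 288 CPM in WT and 406, 334 and 359 CPM in Eumyc. It combined a clear group difference (0.73 ± 0.16, adjusted p = 0.00671) with a WT 3 library well above the other WT libraries. Ifi44 was at 2.35, 2.52 and 5.99 CPM in WT and 12.9, 7.80 and 4.97 CPM in Eumyc. Eumyc 3 was below WT 3, and the call (1.29 ± 0.44, adjusted p = 0.0383) ended without WT 1, WT 2, Eumyc 1 or Eumyc 2 (adjusted p = 0.134, 0.137, 0.118 and 0.0577). Ifi35, the GTPase gene Ifi47 and the apoptosis regulator gene Xaf1 did not pass (adjusted p = 0.412, 0.224 and 0.755), and Ifi47 passed without WT 3 (0.23, adjusted p = 0.0304).

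**Figure D2:**
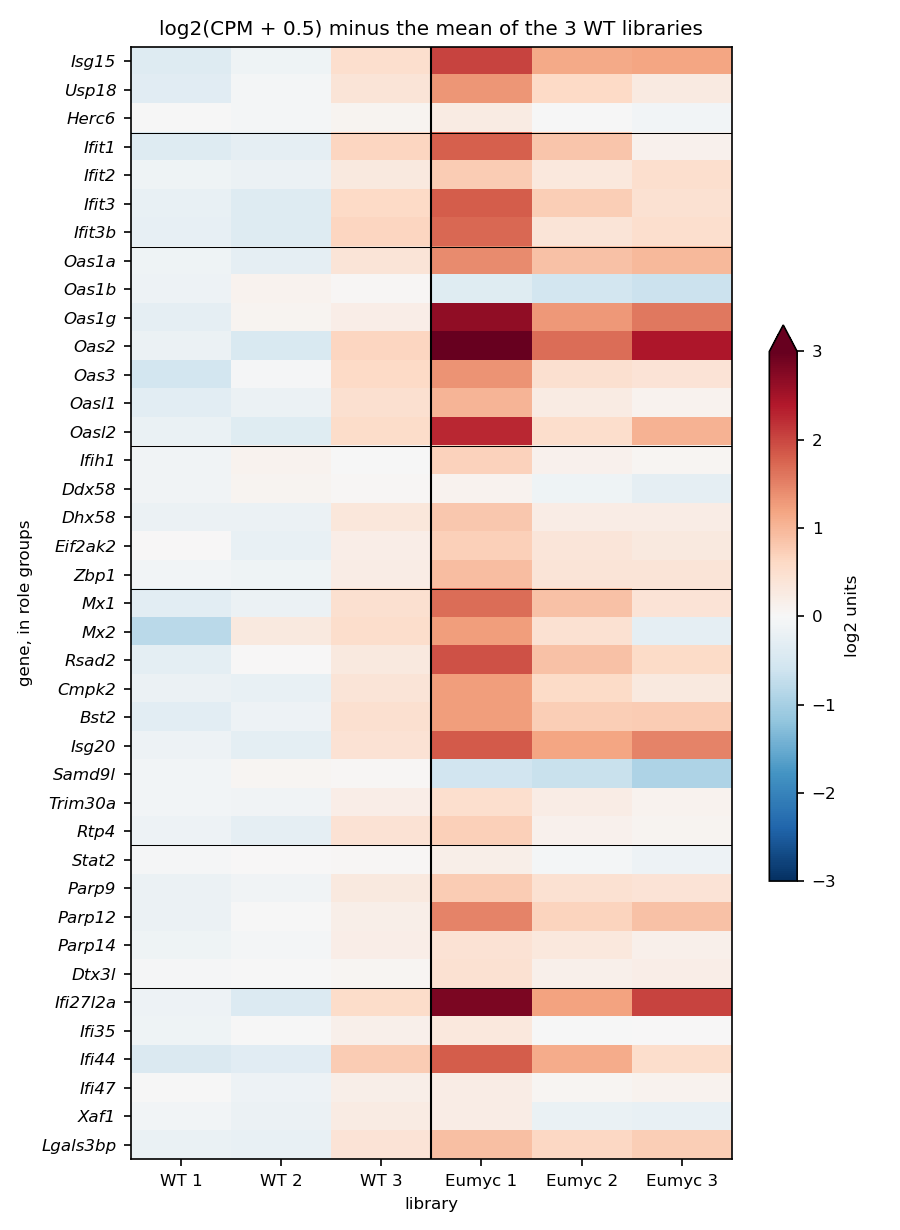
Log2(CPM + 0.5) of each gene in each library minus its mean over the 3 WT libraries, with red above and blue below that mean and the scale ending at 3. Eumyc 1 has the highest value of the 3 Eumyc columns in all 39 rows, and the rows of Oas1b and Samd9l are blue in all 3 Eumyc columns.

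The libraries of a group differed more in these genes than in genes at large. The SD of log2 CPM over the 3 libraries had a median of 0.35 in WT and 0.35 in Eumyc over the 39 genes, against 0.15 and 0.12 over all genes tested. It was above 0.5 for 10 members in WT and 16 in Eumyc, and for 16.3% and 8.77% of all genes. The widest spreads were taken among members with a mean of at least 5 CPM over all 6 libraries. In WT they were those of Ifi44, Oas3 and Ifit1 (0.74, 0.59 and 0.59). In Eumyc they were those of Oasl2, Ifit1 and Ifi27l2a (0.93, 0.87 and 0.84). Below that mean, Oas2 (3.74 CPM) had the largest SD of the 39 genes in both groups (0.97 in WT and 1.07 in Eumyc). The tightest spreads were those of Stat2, Dtx3l and Herc6 in WT (0.03, 0.05 and 0.07) and Ifi47 in Eumyc (0.08).

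The spread ran the same way in nearly every member. Eumyc 1 was the highest Eumyc library for 39 of 39 genes, against 33.0% of all genes tested. WT 3 was the highest WT library for 35 of 39, against 37.9%, and the other 4, Oas1b, Ifih1, Ddx58 and Samd9l, peaked in WT 2. In log2 units the median excess of WT 3 over the mean of WT 1 and WT 2 was 0.58 for the 39 genes, and that of Eumyc 1 over the mean of its fellow libraries was 0.60, where the medians over all genes were 0.0026 and -0.0024. The members that stood out in WT 3 were also those that stood out in Eumyc 1. Across the 39 genes these deviations had a Spearman's rho of 0.82 (Pearson's r 0.84), and across all 15458 genes a rho of -0.08. The groups share no library, but genes are not independent replicates and each group contributes 1 outlying library. The median deviations were 0.97 and 1.32 for the IFIT genes and 0.91 for both in the OAS genes, and were lowest for the STAT2 and PARP set at 0.28 each.

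**Figure D3:**
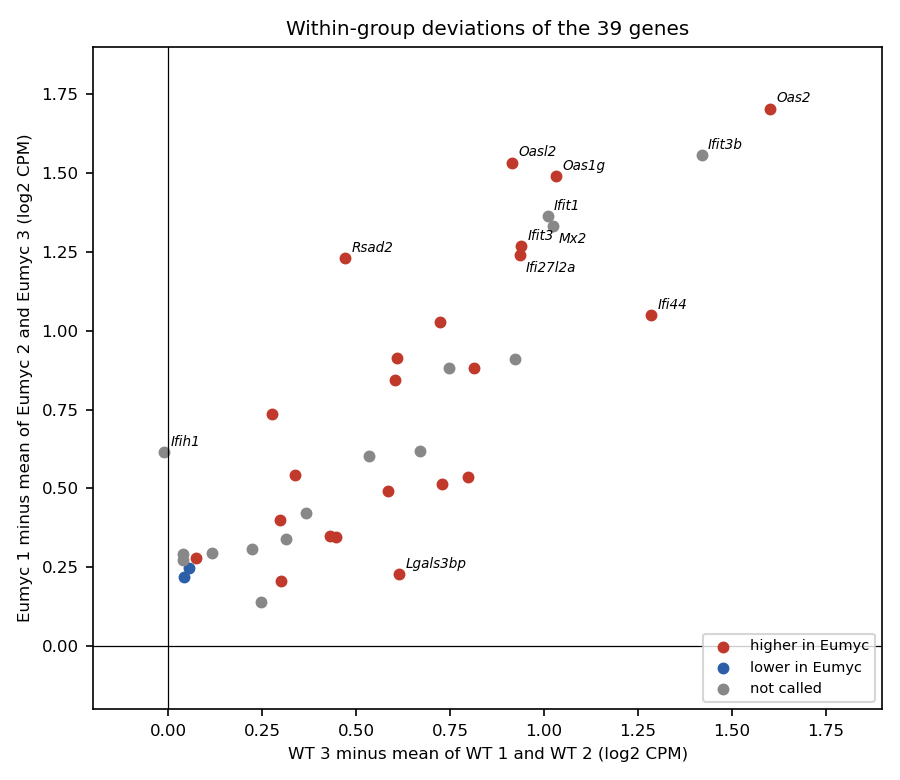
Each point is 1 of the 39 genes, with the log2 CPM of WT 3 minus the mean of WT 1 and WT 2 on the x axis and that of Eumyc 1 minus the mean of Eumyc 2 and Eumyc 3 on the y axis, coloured by the call between groups. All points lie above 0 on the y axis and 38 of 39 above 0 on the x axis, from Samd9l and Oas1b near the origin to Oas2 at 1.60 and 1.70.

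WT 3 was thus nearer to the Eumyc libraries than WT 1 and WT 2 were. It was above the lowest Eumyc library for 23 of the 39 genes, and for 7 of the 22 genes called higher the groups overlapped. Against WT 1 and WT 2 alone, all 3 Eumyc libraries were higher for 31 genes. That count sets aside the WT library that was high in these same genes. For these overlap counts no share over all genes was taken, so they are a description. The number called higher moved with the libraries used. It was 9 without WT 1 and 9 without WT 2, or 23.1% of the members each time, which was near the background of 20.4% and 20.2% of all genes in those fits. It was 30 without WT 3 (76.9%, background 26.5%), 13 without Eumyc 1 (33.3%, background 22.1%), 19 without Eumyc 2 (48.7%, background 23.5%), 24 without Eumyc 3 (61.5%, background 20.7%) and 29 without both WT 3 and Eumyc 1 (74.4%, background 24.4%). In the last fit all 22 genes called with 6 libraries were called again, and the median log2 fold change was 0.59. The libraries it left out were the highest of their groups for nearly all of these same genes. This fit is therefore a description and no independent check of the calls. The tool, scaling and filter also moved single calls. Usp18 was not called with DESeq2 (adjusted p = 0.0859), voom (0.0765), total counts (0.0544) or upper quartile scaling (0.0546). Ifit3 was not called with DESeq2 (0.0730), voom (0.0747) or total counts (0.0501), and Oasl2 with neither form of voom (0.0769 and 0.0736 with quality weights). Cmpk2 and Rsad2 were not called with voom (0.0547 and 0.0558). In the other direction, Ifit1, Ifit3b, Oas3, Dhx58 and Trim30a passed edgeR without a filter (0.0190, 0.0409, 0.0212, 0.0427 and 0.0310). DESeq2 called Ifit3b, Dhx58 and Trim30a (0.0437, 0.0457 and 0.0446), and voom with quality weights called Oas3 and Trim30a (0.0254 and 0.0318).

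The 9 genes called higher in every fit that left libraries out were Isg15, Isg20, Oas1a, Oas1g, Oas2, Bst2, Parp12, Ifi27l2a and Lgals3bp. Samd9l and Oas1b were called lower in all of these fits, with log2 fold changes from -0.78 to -0.62 and from -0.60 to -0.45. As Oas1g was under the filter level in every WT library, its calls were in part fixed by the filter, and leaving libraries out is no check of them.

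**Figure D4:**
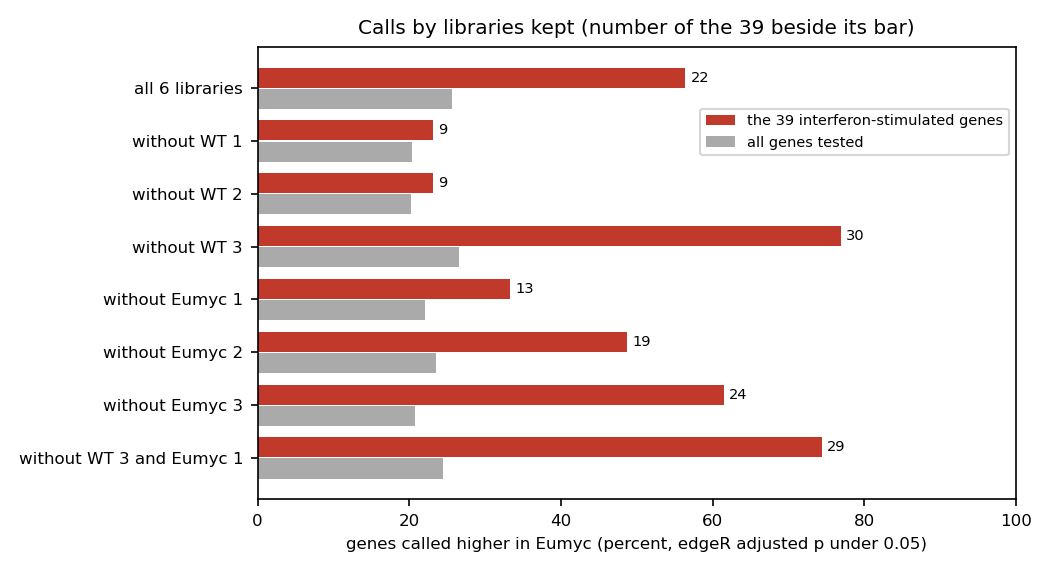
Percent of genes called higher in Eumyc by edgeR at an adjusted p under 0.05, for the 39 genes (red, with their number) and for all genes tested (grey), with all 6 libraries and with libraries left out. The red bars run from 9 genes without WT 1 or WT 2 to 30 without WT 3, while the grey bars stay between 20.2% and 26.5%.

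Other transcripts stood out in Eumyc 1 or in WT 3. Of the 14 monocyte and macrophage markers that rose, 13 had Eumyc 1 above the mean of the other Eumyc libraries, and the median excess of the 14 was 1.01 in log2 units. Fcgr4 was at 195.0, 65.7 and 108.3 CPM in Eumyc 1, 2 and 3 and at 1.32 to 1.70 CPM in WT, and Csf1r at 343.7, 144.6 and 191.1 CPM and 33.0 to 48.3 CPM. For 12 of these 14 markers the order was Eumyc 1, then Eumyc 3, then Eumyc 2, which 15.9% of all genes tested had. Over all 20 listed markers it was also 12, and Vcam1, C1qa and C1qc had Eumyc 1 lowest. The same order held for 17 members, among them Oas2, Oas1g, Oasl2, Ifi27l2a, Isg15 and Isg20. The other 22 members, among them Usp18, Ifit1, Ifit3, Mx1 and Samd9l, had the order Eumyc 1, Eumyc 2, Eumyc 3, as did 17.1% of all genes tested. Since Eumyc 1 was the highest for all 39 members, no other order could occur among them. In WT 3 5 of the 14 markers were above the mean of WT 1 and WT 2, with a median deviation of -0.26, while the cell division genes were higher there. In Eumyc 1 the 10 cell division genes had a median deviation of -0.29, and 0 of them were above the mean of the other Eumyc libraries. The part of monocytes, macrophages and cell division in the interferon-stimulated genes was not tested.

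Levels compared per kilobase of exon differed widely between members. In WT the highest were Samd9l at 115.4, Ifi47 at 91.0 and Lgals3bp at 77.7 CPM per kilobase, and the lowest were Oas2 at 0.138 and Oas1g at 0.0662. In Eumyc Lgals3bp (128.7 ± 12.8, SD, n = 3) was above Ifi47 (99.8 ± 5.88) and Samd9l (69.9 ± 8.41), and these 3 did not overlap within 1 SD. In WT Ifi47 and Lgals3bp did (91.0 ± 10.01 and 77.7 ± 20.3). The largest move in rank was that of Ifi27l2a, from place 22 to place 7. Of all genes tested 25.7% were called higher and 23.1% lower. The 13 genes with the highest WT level had a median log2 fold change of 0.27 with 6 called higher and both lower calls. The 13 in the middle had 0.77 with 9 higher, and the 13 lowest had 1.29 with 7 higher. These values share the WT libraries, and low genes have wider errors, so they are a description.

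**Figure D5:**
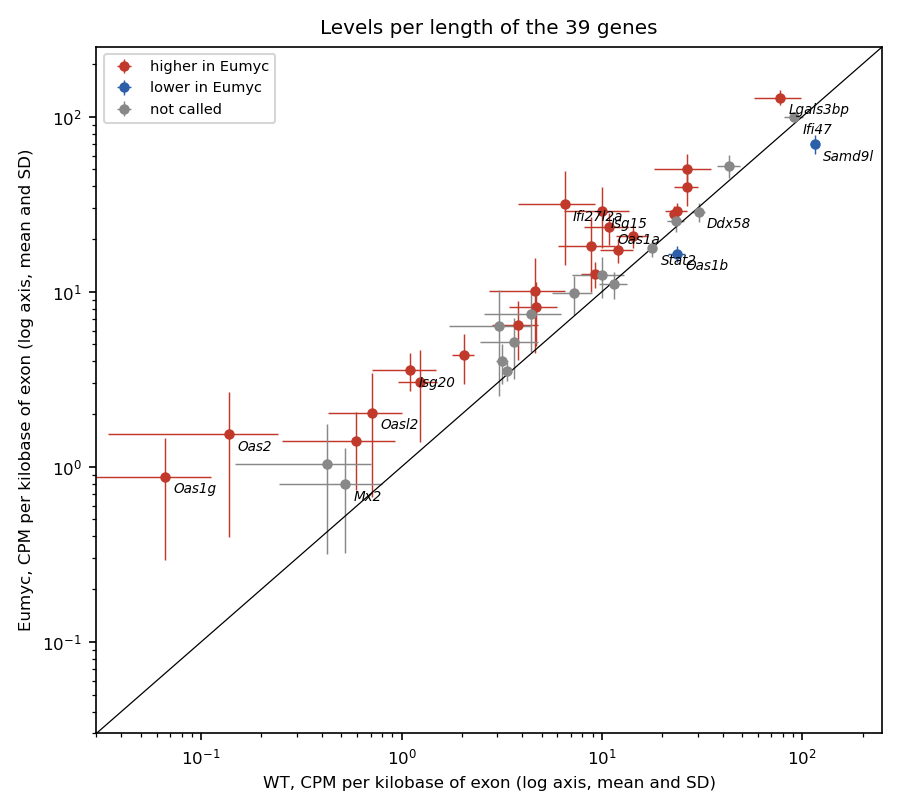
Mean level of each gene in CPM per kilobase of exon in WT (x axis) and Eumyc (y axis), both log axes, with bars for the SD over 3 libraries and the diagonal marking equal levels. The left WT bar of Oas1g ends at the edge of the axis. Genes at the lower left such as Oas1g and Oas2 lie farthest above the diagonal, and Samd9l and Oas1b lie below it.

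The rest of the pathway was read from lists ordered by role. None of the 17 type I interferon genes looked up reached the filter. Single counts were found for Ifnb1 (1 count in Eumyc), Ifna15 (4 counts in Eumyc) and Ifnk (5 counts in WT), and the other 14 had 0 counts in all 6 libraries. Of the 42 other pathway genes tested 14 were higher (33.3%, against 25.7% of all genes) and 7 lower (16.7%, against 23.1%). The receptor chain gene Ifnar1 fell from 245 to 211 CPM in the mean (-0.22 ± 0.06, adjusted p = 0.0214), and its partner Ifnar2 did not pass (0.0069 ± 0.06, adjusted p = 0.931). Both receptor kinase genes fell, Jak1 by 0.45 (adjusted p = 0.00650) and Tyk2 by 0.47 (adjusted p = 0.00107) on the log2 scale. Irf9, which encodes the DNA-binding partner of STAT2, did not pass (-0.05 ± 0.12, adjusted p = 0.752).

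Irf7, the factor that amplifies interferon production and is itself induced by interferon, was at 109.2, 122.0 and 139.0 CPM in WT and 154.6, 105.8 and 96.4 CPM in Eumyc. It carried the high WT 3 and Eumyc 1 values of the members but no group difference (-0.05 ± 0.17, adjusted p = 0.815). Of the 6 interferon regulatory factor genes Irf5 rose (1.33 ± 0.21) and Irf3 fell (-0.47 ± 0.06). The endosomal RNA and DNA receptor genes Tlr7 and Tlr9 rose (2.87 ± 0.30 and 2.13 ± 0.33), as did Ifitm3, which blocks viral entry (4.35 ± 0.56). All 3 were highest in Eumyc 1 and lower in Eumyc 2 than in Eumyc 3, the order of 12 of the 20 monocyte and macrophage markers. The DNA sensor gene Mb21d1, which encodes cGAS, rose (0.49 ± 0.15, adjusted p = 0.0267), and the adaptor genes Mavs and Tmem173 did not pass (adjusted p = 0.775 and 0.200).

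The authors' deposited table lists 34 of the 39 genes and does not list Oas1b, Oas1g, Oas2, Mx2 and Ifit3b. Of these the authors' deposited table had 20 higher and 1, Samd9l, lower at an adjusted p under 0.05, where 30.5% of all its genes were higher. All 34 had the sign of the edgeR estimate, and the 20 were called higher in both. The authors' deposited table gives a smaller log2 fold change than edgeR for all 30 genes that were positive in both, with Ifi27l2a at 1.76, Oasl2 at 1.13 and Ifit1 at 0.64, and nearly the same for Samd9l at -0.72.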

How the data were processed

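RNA of sorted splenic NK cells was sequenced in 6 libraries, 3 per group. The authors deposited whole-number counts per gene, and the submitters' processing notes name DESeq2 1.10.1, HTSeq 0.6.1 and STAR 2.5.2, and as builds GRCm38 and mm10. Neither the strand setting nor the annotation release is given in the sources used here. The authors' deposited comparison table gives log2 fold changes with standard errors and adjusted p-values, which were used, and a mean scaled count signal and a Wald score, which were not.

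The group difference was fitted in R 4.3.3 by edgeR 4.0.16 (filterByExpr at a minimum count of 10, TMM scaling, group as the only term, two-sided quasi-likelihood test, Benjamini-Hochberg adjustment over 15458 genes). The tested genes held 99.9% of the counts. Standard errors come from the F statistic. Log2 CPM used a prior count of 2, and exon lengths came from GENCODE M21. Scripts were tested on simulated data. As alternatives served limma voom (3.58.1), plain and quality-weighted, DESeq2 1.42.0, other scalings and filters, a test against 1.5-fold, a replicate block, and leaving out libraries. All pairs within a group differed beyond sampling noise (lowest chi-square per degree of freedom 8.01). With 3 libraries a group and counts of 16407611 or more, precision is limited mostly by the spread between libraries.

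The members and the other lists were chosen with earlier results of these data known. Per-library values are given for the most abundant gene of each role group. They are also given for the 12 genes with the smallest adjusted p among those called with groups apart. The 3 genes with the largest SD in each group, at a mean of at least 5 CPM over all 6 libraries, are included too. Usp18, Mx1, Stat2 and Irf7 were added after their values were seen, and so were the ordering counts. Some genes of the pathway lists are counted in the totals but not reported here by name.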

Additional observations from a re-analysis of the deposited data

How the results depend on the processing

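The members called higher numbered 17 to 27 over the other tools, scalings and filters, with 22 as the main count, and the 2 called lower were called in each of these. Leaving out 1 library gave 9 to 30 members called higher, 2 called lower each time, a median log2 fold change of 0.42 to 0.92, and 5868 to 7907 genes called in all. Without WT 3 and Eumyc 1 together the counts were 29 and 2. Against a 1.5-fold change 6 members passed as higher and 0 as lower, with 1828 genes called in all, against 7549. The replicate block gave 20 members called higher, losing Usp18 (edgeR adjusted p = 0.0671) and Ifi44 (0.0500495). Same-numbered libraries of the groups had correlations of 0.04, 0.10 and 0.13, so the numbers were not taken to pair them. The sign reversed only in genes near 0, and the cause was not tested. Stat2 was at 0.0004 with DESeq2 and with DESeq2 size factors, 0.0053 with voom and quality weights and 0.0204 without a filter, and ran from -0.0863 to 0.0702 as single libraries were left out. In the same way Xaf1 ran from -0.1984 to 0.0772, Herc6 from -0.0237 to 0.1401 and Ddx58 from -0.1774 to 0.0009. With 1 count in WT 1, Oas1g is limited by depth.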
